A study of Mus musculus with 9 samples.

Results

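The genes described here encode the vesicle and release machinery of the synapse and its receptors: synaptotagmins, synapsins, synaptophysin, SV2 proteins, complexins, the exocytic SNAREs, neurexins and neuroligins, and the receptor subunits and transporters of fast glutamate and GABA transmission. They were chosen by gene symbol alone, without regard to level, and came to 171 probe sets of 77 genes, out of 45101 probe sets and 18193 named genes on the array. The symbol pattern that takes the syntaxin Stx1a also takes 6 syntaxins of other membrane compartments (Stx11, Stx12, Stx16, Stx17, Stx18 and Stx19), which are counted as members and described apart.

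RNA from 3 groups of mouse cultures was measured, with 3 Affymetrix arrays in each. Every group was made from Ainv15 embryonic stem (ES) cells, a single line that carries a V5-tagged Cdx2 gene switched on by doxycycline. ES cells were taken at day 0, after growth with LIF on fibroblasts stopped by mitomycin C. Motor neuron cultures were embryoid bodies at day 5 given 1 µM retinoic acid (all-trans) and a hedgehog agonist at 0.5 µM from day 2. Cdx2 and FGF cultures, also at day 5, received these signals and, from day 3, doxycycline at 2 µg/ml together with basic FGF at 100 ng/ml. Doxycycline was left on for 6 to 8 hours before a wash, after which retinoic acid and agonist are listed at lower doses, without a statement of which cultures received them. Cdx2, a caudal-type homeobox factor, FGF and doxycycline always came together, so their parts cannot be told apart. If the lower doses of retinoic acid and agonist went to the Cdx2 and FGF cultures alone, their part cannot be told apart either. The comparisons ask how far the synaptic genes are on at day 5 of motor neuron differentiation, and how they stand in cultures given Cdx2 and FGF. The day 5 groups were separate groups at the same day. The words rise, fall and went from thus name differences between groups, not changes followed in time.

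Transmitter is held in vesicles loaded by transporters, and vesicles fuse with the presynaptic membrane when the SNARE proteins Snap25, syntaxin 1 and Vamp2 zip together. Synaptotagmins sense the calcium that triggers fusion and complexins hold or assist the SNARE complex, while synapsins tether the reserve of vesicles and synaptophysin lies in their membrane. Neurexins and neuroligins join the facing membranes, and the receptors behind them are ion channels opened by GABA (GABA-A) or by glutamate (AMPA, kainate and NMDA). Motor neurons release acetylcholine, so vesicular glutamate and GABA transporters are not their hallmark. Many of these genes carry binding elements for REST, a repressor that keeps neuronal genes off in other cells.

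Promoter sequences of 5 genes are shown because these genes stand for the different outcomes reported here. Syn1, Syp and Cplx1 were lower in Cdx2 and FGF cultures than in motor neuron cultures, and Cplx2 was not. The AMPA receptor gene Gria2, which was not tested, passed a log2 signal of 4 on motor neuron arrays alone. Each runs from 250 bases before to 50 after the RefSeq transcription start in build GRCm38.p6, 5′ to 3′ on the gene's own strand. Capitals mark matches to the strings searched. They lie at chrX:20920869-20921168 (minus strand, Syn1), chrX:7638330-7638629 (plus, Syp), chr5:108549978-108550277 (minus, Cplx1), chr13:54302306-54302605 (plus, Cplx2) and chr3:80802786-80803085 (minus, Gria2).
Syn1: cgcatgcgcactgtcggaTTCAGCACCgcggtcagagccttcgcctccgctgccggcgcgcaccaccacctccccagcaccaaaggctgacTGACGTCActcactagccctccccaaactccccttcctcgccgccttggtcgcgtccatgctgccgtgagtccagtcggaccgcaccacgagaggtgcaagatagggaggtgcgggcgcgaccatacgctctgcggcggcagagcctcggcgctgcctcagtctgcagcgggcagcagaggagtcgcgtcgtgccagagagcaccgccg
Syp: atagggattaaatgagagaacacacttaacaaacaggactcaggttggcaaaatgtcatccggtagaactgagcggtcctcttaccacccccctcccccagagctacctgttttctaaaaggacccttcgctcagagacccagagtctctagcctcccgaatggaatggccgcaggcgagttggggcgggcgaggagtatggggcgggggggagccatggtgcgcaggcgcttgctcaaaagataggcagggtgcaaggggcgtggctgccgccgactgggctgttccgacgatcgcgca
Cplx1: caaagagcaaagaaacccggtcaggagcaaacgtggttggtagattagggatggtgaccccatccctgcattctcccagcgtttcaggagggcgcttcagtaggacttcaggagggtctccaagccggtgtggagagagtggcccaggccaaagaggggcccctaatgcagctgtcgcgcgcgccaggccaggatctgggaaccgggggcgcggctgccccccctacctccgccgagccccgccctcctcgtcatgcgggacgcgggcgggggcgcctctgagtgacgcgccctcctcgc
Cplx2: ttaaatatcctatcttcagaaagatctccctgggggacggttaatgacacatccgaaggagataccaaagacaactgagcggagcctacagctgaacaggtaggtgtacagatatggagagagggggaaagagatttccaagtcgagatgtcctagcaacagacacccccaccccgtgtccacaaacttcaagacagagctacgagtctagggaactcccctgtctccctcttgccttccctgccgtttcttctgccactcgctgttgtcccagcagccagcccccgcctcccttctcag
Gria2: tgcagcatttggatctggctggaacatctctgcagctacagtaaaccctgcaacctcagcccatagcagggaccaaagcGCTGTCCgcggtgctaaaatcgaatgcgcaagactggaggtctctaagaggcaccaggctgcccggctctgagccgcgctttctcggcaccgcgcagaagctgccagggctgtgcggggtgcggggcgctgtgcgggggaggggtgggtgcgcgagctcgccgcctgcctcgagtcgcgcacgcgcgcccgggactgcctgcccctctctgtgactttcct
The 5 strings, searched on both strands, were TTCAGCACC and GGACAGC (the left and right parts of the REST element), TTTATG (a form of the caudal-type factor site), TATAAA (the TATA box) and TGACGTCA (the cyclic AMP response element). No string lies within another, but the reverse complement of TTTATG shares its last letters with TATAAA. RefSeq promoters were at hand for 58 of the 77 genes, 77 promoters in all. The Syn1 promoter holds TTCAGCACC at position -232 and TGACGTCA at -159 from the start. Such matches are uncommon: TTCAGCACC is in 0.37% of all 32851 promoters of this length and in 2 of the 77 promoters of the synaptic genes (Syn1 and Nlgn1), and TGACGTCA is in 1.79% of all and 1 of the 77. Gria2 holds the reverse complement of GGACAGC at -171. GGACAGC is in 6.56% of all promoters and 5 of the 77 (3 of them of Syt6), TTTATG in 11.85% and 7, and TATAAA in 13.62% and 7. The Syp, Cplx1 and Cplx2 windows hold none of the 5 strings, which says only that these letters are not in those windows. The promoters also differed in composition. The median G and C content was 59.0% over the 77 promoters against 52.7% over all promoters, with medians of 14 and 7 CpG dinucleotides. Syn1 held 68.3% G and C and 33 CpG, Cplx1 67.0% and 24, Syp 59.0% and 18, and Cplx2 53.3% and 9.

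The deposited values are log2 signals per probe set, and they run from a floor of 2.17 to 16.12. A probe set's level depends on its probes, so levels are compared between arrays and not between genes. Each gene is given by its brightest probe set. A gene was tested where its value passed 4 on at least 3 of the 9 arrays, and a call in either direction needed an adjusted p below 0.05 and a log2 difference of 1 or more. Of the 77 genes, 28 were tested, and 39 were under 4 on every array, 16 of them within 0.01 of the floor on all 9 (12 exactly at it). The other 10 passed 4 on 1 or 2 arrays, which were ES arrays for 7 genes and motor neuron arrays for 3. Passing 4 is not a detection call, since a repeated value above 4 occurs (5.14 on 7 arrays for Grin3b). The labels do not say whether the 3 arrays of a group come from separate cultures, so p-values measure a spread that may be technical.

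**Figure D1:**
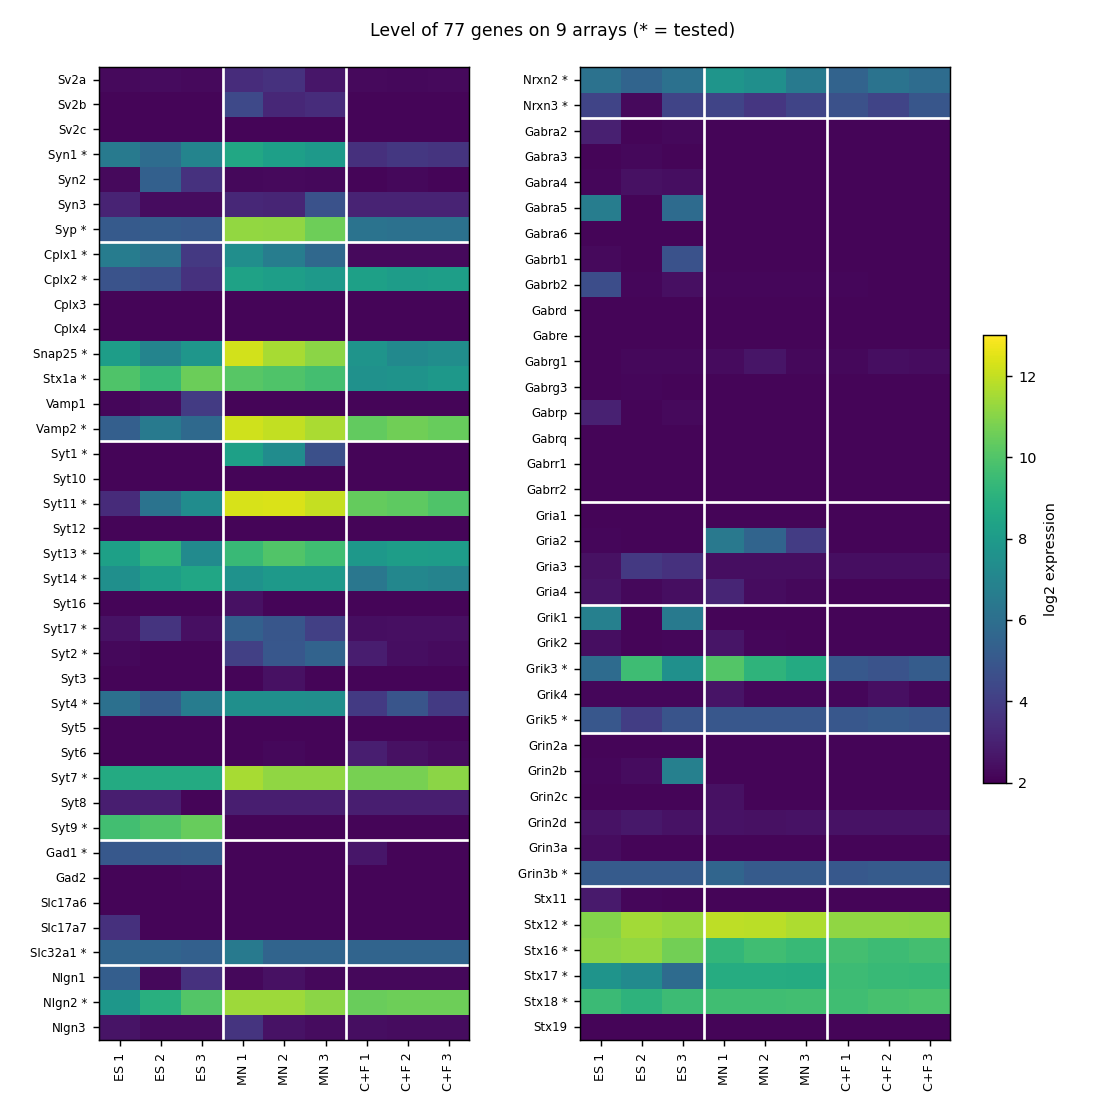
Log2 signal of each of the 77 genes (rows, grouped by role) on each of the 9 arrays (columns), with an asterisk on the 28 tested genes. Signal on the motor neuron arrays lies mainly in the release machinery, while most receptor rows stay at the dim end on all 9 arrays.

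The ES arrays stood apart in technical measures. The control probe set for 18S RNA read 5.86 to 6.60 on them and 15.3 to 15.5 on the other 6 arrays, and the Actb control signal at the 3′ end less that at the 5′ end was 2.07 ± 0.219 (SD, n = 3) against about -0.04. For the Tfrc control that difference was 6.25 ± 0.637 for ES cells, -1.50 ± 0.0947 for motor neuron cultures and -1.62 ± 0.163 with Cdx2 and FGF (SD, n = 3 each). Correlations within a group were 0.963 to 0.974 for ES cells and at least 0.995 for the others, and the part of these differences in any ES comparison below was not tested. Motor neuron cultures bore their markers in part: 6 of 10 listed genes were tested and all 6 were higher than in ES cells, beside 25.9% of all genes. Chat, which makes acetylcholine, and Slc5a7, which takes up the choline for it, were at the floor on all 9 arrays. Of the 9 listed genes with a probe set, 6 were under 4 on all ES arrays. For the tested genes among these, the filter left little room for another direction. The 11 pluripotency genes were under 4 on all day 5 arrays.

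From ES cells to motor neuron cultures, 15 of the 28 tested synaptic genes rose and 3 fell. Over all 10911 genes tested, 25.9% rose and 30.7% fell. Syt1, Syt2 and Syt17 passed 4 on motor neuron arrays only, and Syt9 and Gad1 on ES arrays only, so the filter fixed their directions and no p is given for them. Of the other 23 tested genes, 12 rose and 1 fell. The median log2 difference over the 28 was 1.49 for the synaptic genes, or 1.16 with values under 4 raised to 4, against -0.08 for all genes. In Cdx2 and FGF cultures 14 of the 28 genes were lower than in motor neuron cultures and 0 were higher, where 8.61% of all genes were lower and 11.2% higher. limma also gave 0 higher genes at an unadjusted p under 0.05, and no other tool was run. This fit pools the spread of the ES arrays, which was wide for some genes. With the 6 day 5 arrays alone, 15 of the 28 were lower and 0 higher, beside 9.47% and 12.1% of all genes. Here the median was -1.21 (-0.83 with values raised) against 0.04, and 20 of 28 differences were below 0. The 14 falls ran from -1.03 to -4.86. Against ES cells, the Cdx2 and FGF cultures had 7 higher and 9 lower synaptic genes, beside 25.4% and 27.2% of all genes. The median there was -0.06. These comparisons share arrays, so their values are set side by side and are not independent. The shares over all genes given here also stand beside the counts by role below. Without the same 5 genes, 11 of 23 were lower and 0 higher in Cdx2 and FGF cultures than in motor neuron cultures, and 7 were higher and 7 lower than in ES cells. Among those 11, Cplx1 also needed motor neuron arrays to enter the test. Without the 6 other syntaxins, 24 genes were tested, with 14 higher and 2 lower in motor neuron cultures than in ES cells and 14 lower in Cdx2 and FGF cultures. Centring each array on its median moved the all-gene median to 0.35 for motor neuron cultures against ES cells and to 0.43 for Cdx2 and FGF cultures against ES cells. Under it 33.5% of all genes rose and 23.9% fell in the first of these, while the synaptic genes numbered 17 higher and 3 lower. In bulk RNA, fewer cells of a type and less RNA per cell cannot be told apart.

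**Figure D2:**
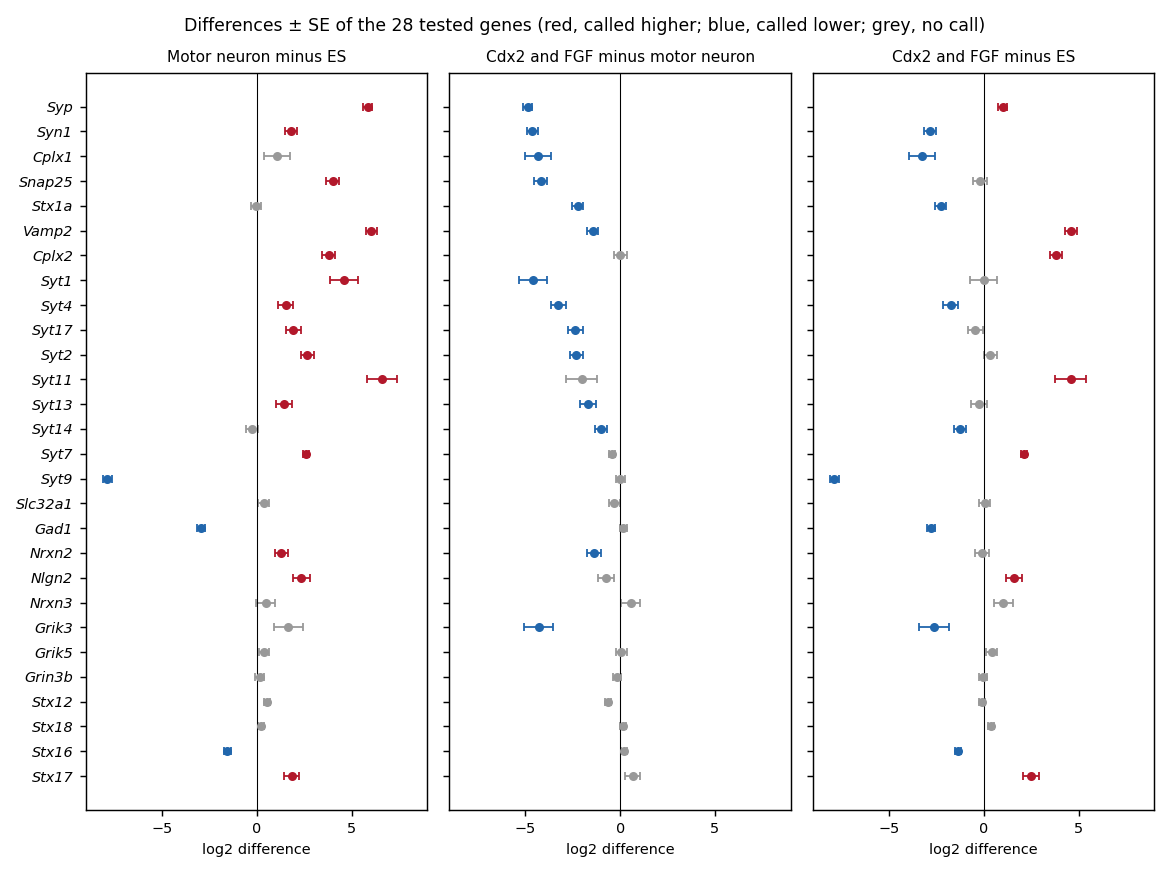
Log2 difference with its SE (limma) for each of the 28 tested genes in the 3 comparisons. Points for motor neuron cultures against ES cells lie mostly to the right of 0, and those for Cdx2 and FGF cultures against motor neuron cultures lie to the left of 0 for 20 genes.

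Among vesicle membrane proteins and synapsins, 7 genes were measured and 2 were tested, Syp and Syn1. Both were higher in motor neuron cultures than in ES cells, and lower with Cdx2 and FGF than in motor neuron cultures. Synaptophysin (Syp) read 5.11, 5.21 and 5.06 for ES cells, 11.23, 11.17 and 10.57 for motor neuron cultures and 6.19, 6.10 and 6.10 under Cdx2 and FGF. All motor neuron arrays lay far above the others, and the 3 groups did not overlap. Syp was 58.2-fold higher in motor neuron cultures than in ES cells (log2 difference 5.86, SE 0.24, adjusted p = 2.81e-08, limma) and 29.1-fold lower in Cdx2 and FGF cultures than in motor neuron cultures (-4.86, SE 0.24, adjusted p = 5.95e-07). Its excess over ES cells with Cdx2 and FGF was 1.00 (adjusted p = 0.00373), at the edge of the call, and the difference was just under 1 without ES replicate 1, without ES replicate 3 (0.97) or without Cdx2 and FGF replicate 1 (0.97). It was not called either with array weights (just under 1), after quantile normalization again (0.72) or with the mean of its probe sets (0.50). The second Syp probe set was at the floor on every array. Synapsin 1 (Syn1) read 6.49, 5.90 and 6.98 for ES cells, 8.59, 8.22 and 7.97 for motor neuron cultures, and 3.51, 3.76 and 3.64 under Cdx2 and FGF. Here the Cdx2 and FGF arrays were the lowest of all, under the ES arrays too. The rise was 3.49-fold (1.80, SE 0.31, adjusted p = 0.00052) and the fall at least 19.2-fold (-4.62, SE 0.31, adjusted p = 5.14e-06). A fold is given as a lower bound wherever an array of the dimmer group is under 4, with such values raised to 4. Against ES cells Syn1 was at least 5.49-fold lower (adjusted p = 2.93e-05). The other 5 genes of the group, Syn2, Syn3, Sv2a, Sv2b and Sv2c, did not enter the test. Syn2 passed 4 on ES replicate 2 alone (5.35) and Syn3 on motor neuron replicate 3 alone (4.75). Sv2b, a vesicle glycoprotein, read 4.44, 3.23 and 3.38 on motor neuron arrays and the floor elsewhere, and Sv2a and Sv2c were under 4 on every array.

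**Figure D3:**
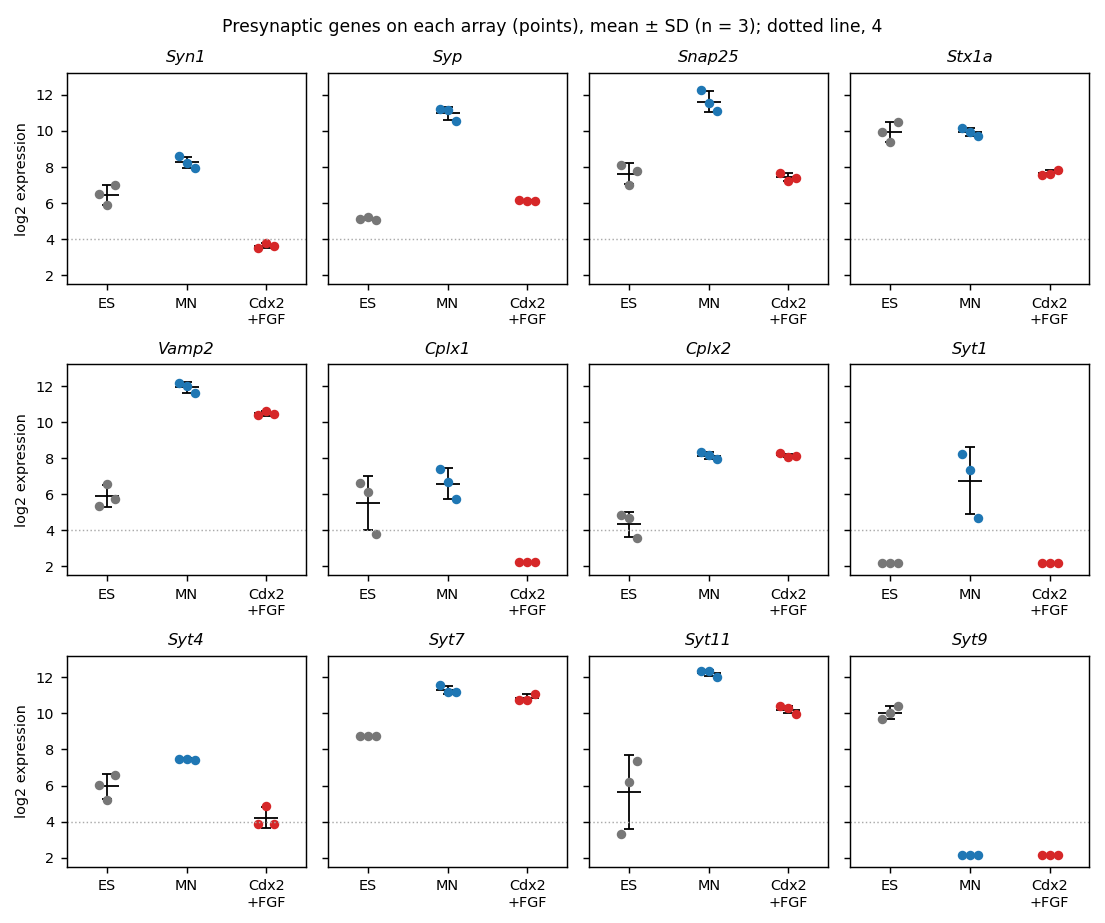
Log2 signal on every array (points) with group mean and SD (n = 3) for 12 presynaptic genes; the dotted line marks 4. Syp, Snap25 and Syt1 peak on the motor neuron arrays, Cplx2 and Syt7 are high on the Cdx2 and FGF arrays too, and Syt9 is high on ES arrays alone.

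The SNARE and complexin group had 8 genes, 5 of them tested, with 3 higher in motor neuron cultures and 4 lower with Cdx2 and FGF. Snap25, the plasma membrane SNARE, read 8.12, 6.98 and 7.79 for ES cells, 12.24, 11.56 and 11.09 for motor neuron cultures and 7.68, 7.23 and 7.40 under Cdx2 and FGF. The motor neuron arrays stood above the rest, and the ES and Cdx2 and FGF arrays overlapped. It rose 16.0-fold (SE 0.36 on the log2 scale, adjusted p = 5.75e-06) and was 18.3-fold lower with Cdx2 and FGF (-4.19, adjusted p = 2.39e-05), where its difference from ES cells was -0.19 (adjusted p = 0.654). The vesicle SNARE Vamp2 read 5.34, 6.55 and 5.75 for ES cells, 12.19, 12.00 and 11.60 for motor neuron cultures and 10.38, 10.62 and 10.45 under Cdx2 and FGF. Vamp2 was 66.1-fold higher in motor neuron cultures than in ES cells (6.05, SE 0.30, adjusted p = 9.79e-08). With Cdx2 and FGF it was 2.72-fold lower than in motor neuron cultures (-1.45, adjusted p = 0.00508), a smaller difference in value than for Snap25. A difference between these genes was not tested. The other Vamp2 probe set put the ES arrays at 8.98, 9.44 and 8.91, the motor neuron arrays at 9.93, 9.71 and 9.08 and the Cdx2 and FGF arrays at 7.30, 7.59 and 7.95. The rise was not called by this probe set (0.46, adjusted p = 0.166). The fall was called by both, at -1.45 and -1.96, but against ES cells the Cdx2 and FGF cultures were higher by 4.60 on the first and lower on the second (-1.50, adjusted p = 0.00107). Among the tested probe sets, Vamp2 was the only member called in opposite ways by its probe sets.

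The syntaxin Stx1a, partner of Snap25, read 9.97, 9.40 and 10.52 for ES cells, 10.15, 9.96 and 9.71 for motor neuron cultures and 7.58, 7.63 and 7.86 under Cdx2 and FGF. Its fall was 4.74-fold (-2.25, SE 0.28, adjusted p = 0.000247), with no overlap, and its difference between motor neuron cultures and ES cells was -0.03 (adjusted p = 0.939). The dimmer Stx1a probe set instead was higher in motor neuron cultures than in ES cells (1.72, adjusted p = 5.14e-05), at 4.91, 5.22 and 4.84 against 3.38, 3.46 and 2.99. With Cdx2 and FGF it read 3.46, 3.50 and 3.46, lower than in motor neuron cultures (-1.52, adjusted p = 0.000578). The complexins parted. Cplx1 read 6.60, 6.15 and 3.83 for ES cells, 7.42, 6.66 and 5.72 for motor neuron cultures and 2.27 on all 3 Cdx2 and FGF arrays. It was at least 6.06-fold lower with Cdx2 and FGF than in motor neuron cultures (-4.32, SE 0.68, adjusted p = 0.0011), and its difference between motor neuron cultures and ES cells was not called (1.07, adjusted p = 0.18). Cplx1 passed 4 on 2 ES arrays and 3 motor neuron arrays, so it entered the test only with the help of the latter. The filter thus favoured its fall, and the p of the fall is not free of that. Cplx2 read 4.83, 4.66 and 3.56 for ES cells, 8.33, 8.16 and 7.95 for motor neuron cultures and 8.26, 8.06 and 8.15 under Cdx2 and FGF. The day 5 groups overlapped completely in range, with a difference of 0.01 (SE 0.34, adjusted p = 1), while both were at least 12.6-fold above ES cells (3.80 and 3.81, adjusted p = 5.04e-06 and 6.08e-06). All 3 Cplx2 probe sets gave these calls. Vamp1, Cplx3 and Cplx4 were under 4 on every array.

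**Figure D4:**
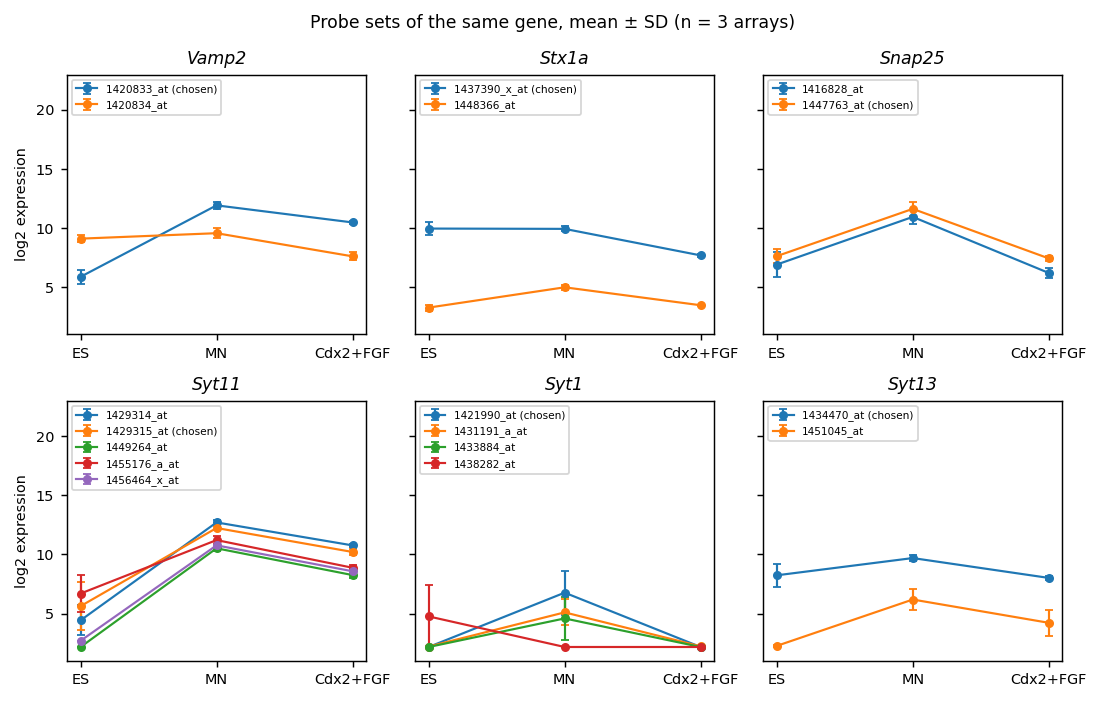
Group mean and SD (log2 signal, n = 3) of every probe set of Vamp2, Stx1a, Snap25, Syt11, Syt1 and Syt13. The Vamp2 probe sets part for ES cells, and those of Snap25 follow one course.

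Of 16 synaptotagmins, 9 were tested, 7 rose and 1 fell in motor neuron cultures, and 6 were lower with Cdx2 and FGF. Over all genes tested these shares were 25.9%, 30.7% and 8.61%. Syt1, Syt2 and Syt17 are among both the rises and the lower genes, and Syt9 is the fall. The filter fixed the directions of these genes, so the counts rest in part on it. Syt1, the main fast calcium sensor, was at the floor of 2.17 on all ES and all Cdx2 and FGF arrays and read 8.26, 7.36 and 4.68 on the motor neuron arrays. It was at least 6.79-fold higher in motor neuron cultures than in either other group, a direction that the filter fixed. That bound was 14.0-fold without motor neuron replicate 3 and 4.05-fold without replicate 1. Syt4, a synaptotagmin that does not bind calcium in the usual way, read 6.05, 5.20 and 6.60 for ES cells, 7.49, 7.49 and 7.44 for motor neuron cultures and 3.88, 4.89 and 3.88 under Cdx2 and FGF. Its groups did not overlap, with a rise of 1.52 (adjusted p = 0.00635) and a fall of at least 9.05-fold (-3.26, SE 0.40, adjusted p = 0.000239). Syt13 read 8.23, 9.21 and 7.25 for ES cells, 9.45, 10.00 and 9.62 for motor neuron cultures and 7.85, 8.12 and 8.07 under Cdx2 and FGF. Both its rise (1.46, adjusted p = 0.0108) and its fall (-1.68, adjusted p = 0.0139) were called, the fall not without motor neuron replicate 2 (adjusted p = 0.057) or Cdx2 and FGF replicate 1 (0.0536), and the rise not without ES replicate 3 (0.97). The Syt14 fall was the smallest (-1.03, SE 0.31, adjusted p = 0.0323) and was not called without any 1 motor neuron array, or without Cdx2 and FGF replicate 1 or 3. The 7 synaptotagmins outside the test were at most 2.94 on any array.

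Syt11, which also lacks the usual calcium binding, rose on all 5 of its probe sets. It read 3.34, 6.20 and 7.33 for ES cells, 12.32, 12.36 and 12.03 for motor neuron cultures and 10.38, 10.27 and 9.97 under Cdx2 and FGF. The ES arrays were widely spread and the day 5 groups were tight and apart. The rise was at least 84.0-fold (6.61, SE 0.80, adjusted p = 4.63e-05), and 44.3-fold without ES replicate 1 or at least 141-fold without ES replicate 3. Its difference between Cdx2 and FGF cultures and motor neuron cultures (-2.03, SE 0.80, adjusted p = 0.084) missed the call in the fit of all arrays. The fit of the 6 day 5 arrays alone called it (adjusted p = 2.84e-04), as did fits without ES replicate 1 (9.49e-04) or ES replicate 3 (0.03), and its 4 other probe sets were called lower, by 3.85-fold to 5.07-fold. Syt9 ran the other way, at 9.69, 10.00 and 10.42 on the ES arrays and at the floor on all 6 day 5 arrays (at least 65.7-fold lower). The next 3 genes were picked after their values were seen. Syt7, a slow high-affinity calcium sensor, went from 8.72, 8.72 and 8.73 on the ES arrays to 11.58, 11.16 and 11.18, and stood at 10.75, 10.76 and 11.09 with Cdx2 and FGF. Its rise was 6.00-fold (2.59, SE 0.16, adjusted p = 5.08e-07), and its difference between the day 5 groups was -0.44 (adjusted p = 0.0667). Syt2, a fast sensor like Syt1, read 4.08, 4.98 and 5.50 for motor neuron cultures and 2.17 to 2.89 elsewhere. Syt17 read 5.37, 4.94 and 4.10 there and 2.41 to 3.65 elsewhere. Both were called higher than in ES cells (2.66 and 1.92) and lower with Cdx2 and FGF (-2.32 and -2.35), directions the filter fixed, and none of these calls held once values under 4 were raised to 4.

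Genes that set the transmitter gave little signal. Gad1, which makes GABA, read 5.02, 5.10 and 5.20 for ES cells, the floor for motor neuron cultures and 2.68, 2.17 and 2.17 with Cdx2 and FGF. It was at least 2.15-fold lower in motor neuron cultures than in ES cells, again in the direction fixed by the filter. The second GABA-making gene Gad2 reached at most 2.21, and the vesicular glutamate transporter gene Slc17a6 was at the floor on every array. Slc17a7, another glutamate transporter gene, read 3.54 on ES replicate 1 and the floor elsewhere. Slc32a1, which loads GABA and glycine into vesicles, read 5.55, 5.55 and 5.36 for ES cells, 6.49, 5.55 and 5.55 for motor neuron cultures and 5.55, 5.55 and 5.56 with Cdx2 and FGF. A value of 5.55 repeated on 6 arrays carries no order, and no comparison of Slc32a1 was called.

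Of the neurexins and neuroligins, 3 of 5 genes were tested; 2 rose in motor neuron cultures and 1 was lower with Cdx2 and FGF. Nlgn2, the neuroligin of inhibitory synapses, read 7.84, 8.96 and 10.05 for ES cells, 11.41, 11.39 and 11.08 for motor neuron cultures and 10.47, 10.59 and 10.59 under Cdx2 and FGF. Both day 5 groups lay above the ES arrays, which were spread over more than 2 log2 units. Its rise was 5.08-fold (2.34, SE 0.44, adjusted p = 0.000907). The day 5 groups differed by -0.74 without overlap (adjusted p = 0.244), in a fit whose SE takes in the ES spread. The second Nlgn2 probe set was at the floor on every array. Nrxn2 read 6.16, 5.56 and 6.10 for ES cells, 7.73, 7.48 and 6.53 for motor neuron cultures and 5.48, 6.18 and 5.88 under Cdx2 and FGF. It rose by 1.31 (adjusted p = 0.0084) and fell by 1.39 on the log2 scale (SE 0.36, adjusted p = 0.0156). The rise was not called with array weights (adjusted p = 0.0765), nor the fall without motor neuron replicate 1, motor neuron replicate 2 or Cdx2 and FGF replicate 1 (adjusted p = 0.0663, 0.0609 and 0.0683). With the mean of the Nrxn2 probe sets neither was called (0.65 and -0.70). The second Nrxn2 probe set was at the floor on every array. Nrxn3 read 4.24, 2.30 and 4.26 for ES cells, 4.26, 3.73 and 4.26 for motor neuron cultures and 4.72, 4.26 and 4.94 with Cdx2 and FGF, and had no call. Nlgn1 and Nlgn3 did not enter the test, and Nlgn1 passed 4 on ES replicate 1 alone (5.28).

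The receptors were for the most part dim. Of 30 receptor subunit genes with 65 probe sets, 3 were tested and 21 were under 4 on every array. None of the 35 GABA-A probe sets passed 4 on a motor neuron or a Cdx2 and FGF array, and the highest value there was 2.63. Among GABA-A subunits, Gabra5 read 6.65, 2.17 and 5.83 on the ES arrays and the floor elsewhere. Gabrb1 and Gabrb2 each passed 4 on 1 ES array, and the other 12 GABA-A genes were at most 3.01 on any array. Of the 3 tested receptor genes, the kainate subunit gene Grik3 was the one with a call. It read 5.85, 9.58 and 7.50 for ES cells, 10.04, 9.15 and 8.74 for motor neuron cultures and 5.03, 4.81 and 5.21 under Cdx2 and FGF. The Cdx2 and FGF arrays were the lowest of all, and the ES arrays overlapped those of the motor neuron cultures. Grik3 was 19.6-fold lower with Cdx2 and FGF than in motor neuron cultures (-4.29, SE 0.78, adjusted p = 0.00254). Against ES cells it was 6.18-fold lower (-2.63, adjusted p = 0.0129), 11.5-fold without ES replicate 1 and 3.16-fold without ES replicate 2. The limma fit with no filter did not call this difference from ES cells (adjusted p = 0.0551). Between motor neuron cultures and ES cells the Grik3 difference missed the call (1.67, adjusted p = 0.0789), and passed it without ES replicate 2 (2.63, adjusted p = 0.00215). The other Grik3 probe set, outside the test, showed no signal on ES arrays. It read 2.47 on all ES and all Cdx2 and FGF arrays, and 3.65, 3.85 and 3.12 on motor neuron arrays. Grik1, another kainate subunit, read 6.77, 2.17 and 6.52 on the ES arrays and the floor elsewhere. Grik5 stood at 5.01 on 6 arrays and between 3.98 and 5.16 on the others, with no call, and Grik2 and Grik4 were at most 2.61.

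AMPA receptor genes did not enter the test. Gria2, the subunit that limits calcium entry, read 2.18, 2.17 and 2.17 for ES cells, 6.44, 5.52 and 3.98 for motor neuron cultures and the floor under Cdx2 and FGF. It passed 4 on 2 arrays, which is under the 3 asked for. Another Gria2 probe set read 4.54, 3.25 and 2.17 on the motor neuron arrays and up to 3.28 on an ES array. The remaining Gria2 probe set reached at most 2.65, on an ES array. Gria1 was at the floor on all 9 arrays, Gria3 reached at most 3.82 and Gria4 at most 3.13. Of 6 NMDA subunit genes only Grin3b was tested; it had no call, and Grin2b passed 4 on ES replicate 3 alone (6.81). The other 4 NMDA genes were at most 2.73.

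The other syntaxins, which serve the endoplasmic reticulum, Golgi and endosomes rather than synaptic vesicles, gave 0 calls between the day 5 groups among 4 tested genes, and 0 with limma at an unadjusted p under 0.05 for higher signal. Stx17, known for its part in autophagosome fusion, rose in motor neuron cultures by 1.84 (adjusted p = 0.00233), and the Golgi syntaxin Stx16 fell by 1.55 (adjusted p = 3.26e-05). Stx17 read 8.79, 8.79 and 8.77 for motor neuron cultures and 9.52, 9.41 and 9.38 with Cdx2 and FGF, without overlap. That difference of 0.65 (adjusted p = 0.263) was under the size a call needs. Its SE of 0.40 takes in the wide spread of the ES arrays (SD 0.96). Stx12, of endosomes, was lower by 0.64 with Cdx2 and FGF at an adjusted p of 0.00933, under the size a call needs. Stx18 had no call on its brightest probe set (0.24 in motor neuron cultures against ES cells). Of its 4 other probe sets, 2 were called higher in motor neuron cultures than in ES cells (2.88 and 2.15, adjusted p = 0.00783 and 0.00119), and 3 were higher in Cdx2 and FGF cultures than in ES cells. None of the 5 was called between the day 5 groups. Stx11 and Stx19 were at most 2.81.

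Among the 14 genes that were lower with Cdx2 and FGF, motor neuron replicate 3 gave the lowest of the 3 motor neuron values for 11 and replicate 1 the highest for 10. The count of lower genes was 11 to 15 when any 1 array was left out, 11 without motor neuron replicate 2 or without Cdx2 and FGF replicate 1. Over single probe sets, 49 of 171 were tested. With Cdx2 and FGF 24 were lower than in motor neuron cultures and 0 higher, where 8.57% of all probe sets were lower and 10.9% higher. In motor neuron cultures against ES cells 30 were higher and 3 lower, beside 31.9% and 27.9% of all probe sets, and in Cdx2 and FGF cultures against ES cells 20 were higher and 12 lower, beside 31.4% and 24.7%.

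Other genes of the synapse were read from lists by role. Over all genes tested, 25.9% rose and 30.7% fell in motor neuron cultures against ES cells, and 11.2% were higher and 8.61% lower with Cdx2 and FGF than in motor neuron cultures. Of 32 tested genes of the active zone and vesicle cycle, 16 rose and 3 fell in motor neuron cultures, and 1 was higher and 18 lower with Cdx2 and FGF (median -1.36). The synuclein gene Sncg went from 14.10, 13.90 and 13.51 to 4.65, 3.95 and 3.60 (at least 786-fold, -9.77, SE 0.39, adjusted p = 1.76e-07). Cadps, a priming factor for dense-core vesicles, went from 9.12, 8.07 and 7.78 to 2.38 on all 3 arrays (at least 20.0-fold), and Snap91, a clathrin adaptor of vesicle retrieval, was 32.5-fold lower. The 1 higher gene was Sypl, a relative of synaptophysin also found outside neurons (1.18, adjusted p = 0.00322), named after its value was seen. Among 9 tested transporters and enzymes of transmitter synthesis, 1 was higher (the glial-type glutamate carrier Slc1a3, 2.62, adjusted p = 0.00572, named for that reason) and 5 lower with Cdx2 and FGF. The vesicular acetylcholine transporter gene Slc18a3 read 11.29, 11.37 and 10.65 for motor neuron cultures and 4.12, 4.01 and 3.67 under Cdx2 and FGF (at least 134-fold, -7.17, adjusted p = 1.28e-07). Slc1a2, a glutamate uptake carrier, was 12.8-fold lower and Ddc, the amine-making decarboxylase, 9.03-fold lower.

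Among 14 tested receptors for acetylcholine, glycine, metabotropic glutamate and other transmitters, 0 were higher and 9 lower with Cdx2 and FGF (median -2.26), and limma gave 0 higher at an unadjusted p under 0.05. The metabotropic receptor gene Grm2 went from 9.95, 9.96 and 9.88 to 3.54, 3.38 and 3.44 (at least 60.9-fold lower). Chrnb4, a nicotinic subunit, was 20.0-fold lower, and the glycine receptor subunit Glra1 at least 15.8-fold. Of 23 tested postsynaptic scaffolds and organisers, 6 were lower and 2 higher (median -0.30), beside 8.61% and 11.2% of all genes. Cbln1, a secreted bridge between neurexin and delta receptors, was 48.3-fold lower, the adaptor Apba2 at least 32.5-fold and the AMPA receptor auxiliary subunit Cacng4 at least 32.0-fold. Cadps, Grm2, Glra1, Apba2 and Cacng4 passed 4 on motor neuron arrays only, so the filter fixed their direction too. The counts of lower genes in these lists keep such genes and were not redone without them. They rest in part on the filter. The 2 higher genes, named for that reason, were the pentraxin Nptx1 (2.95, adjusted p = 0.00261) and the adhesion protein Lrrtm1 (at least 2.96-fold, a direction fixed by the filter, since it passed 4 on Cdx2 and FGF arrays only). Nptx1 read 6.95, 6.24 and 5.01 for motor neuron cultures and 9.11, 8.43 and 9.50 with Cdx2 and FGF. Lrrtm1 read 2.46, 2.27 and 2.27 and then 5.45, 5.93 and 5.31.

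**Figure D5:**
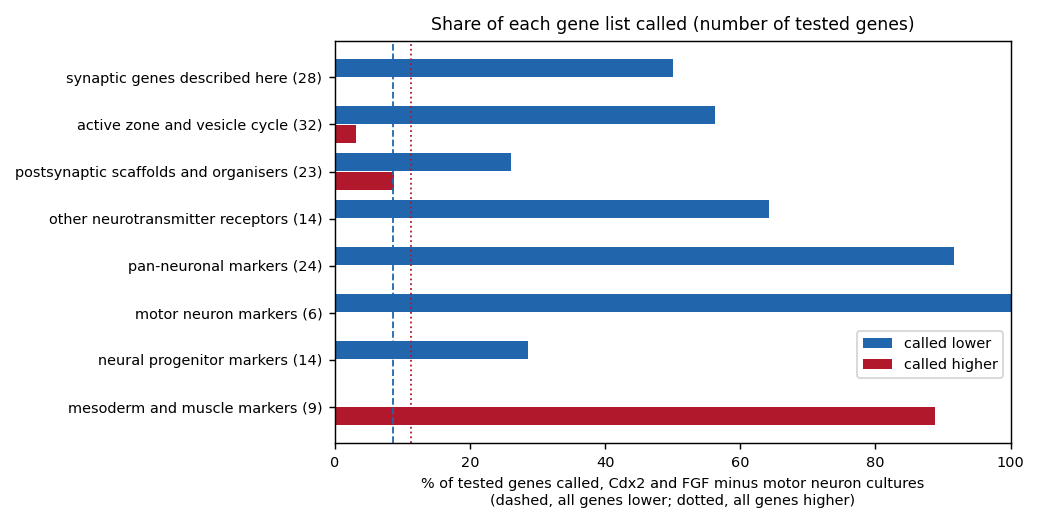
Percent of the tested genes of each list called lower (blue bars) or higher (red bars) in Cdx2 and FGF cultures than in motor neuron cultures, with the shares over all genes tested (8.61% and 11.2%) as dashed and dotted lines. The 28 synaptic genes and the 24 pan-neuronal markers lie past the line for lower calls and have no higher calls, and 8 of 9 mesoderm and muscle markers were higher.

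Markers of neurons and of other cells also differed between the groups. Their lists were chosen with earlier results of these data known. Over all genes tested, 8.61% were lower and 11.2% higher with Cdx2 and FGF than in motor neuron cultures. Against ES cells, 25.4% were higher and 27.2% lower with Cdx2 and FGF. In motor neuron cultures 25.9% were higher and 30.7% lower than in ES cells. Of 24 pan-neuronal markers, 0 were higher and 22 lower with Cdx2 and FGF (median -3.41), and their summed signal (log2) was 14.33 to 14.59 for ES cells, 17.11 to 17.53 for motor neuron cultures and 14.38 to 14.58 under Cdx2 and FGF. At an unadjusted p under 0.05 limma gave 0 higher and 23 lower. All 6 tested motor neuron markers were lower. Set against ES cells instead, 12 of the 24 pan-neuronal markers were called above the ES level and 5 below it (median 0.95). Similar sums thus did not mean similar levels of each marker. For the 6 motor neuron markers, 5 were above the ES level and 1 below (median 3.05). The filter left little room for another direction where such a marker was under 4 on all ES arrays. Of 14 tested neural progenitor markers, 4 were lower and 0 higher with Cdx2 and FGF than in motor neuron cultures, or 8 and 1 at an unadjusted p under 0.05 by limma. Of 9 tested mesoderm and muscle markers 8 were higher with Cdx2 and FGF, and the summed signal of the 14 with a probe set was 11.84 to 14.18 for ES cells, 8.05 to 9.06 for motor neuron cultures and 14.87 to 15.00 under Cdx2 and FGF. In motor neuron cultures 6 of the 9 were lower than in ES cells. Of those 14, 9 were under 4 throughout in motor neuron cultures and 5 with Cdx2 and FGF, and Acta2, a smooth muscle actin, went from 3.24, 2.65 and 5.08 to 13.30, 13.43 and 13.39. The 13 fibroblast markers were all under 4 in motor neuron cultures and 8 of them were with Cdx2 and FGF, where 4 of 6 tested were higher. Their summed signal was 6.21 to 6.26 and 9.65 to 9.92 in those groups and 10.44 to 13.54 on the ES arrays. As no fibroblast marker passed 4 in motor neuron cultures, the filter left little room for lower calls there. The same holds for any tested mesoderm or muscle marker under 4 in motor neuron cultures. The part of these markers in the synaptic gene differences was not tested. The repressor gene Rest read 14.36, 14.48 and 14.43 for ES cells, 9.82, 10.16 and 10.28 for motor neuron cultures and 11.94, 11.89 and 12.04 under Cdx2 and FGF. Its groups did not overlap. Rest was 20.2-fold lower in motor neuron cultures than in ES cells (-4.34, SE 0.12, adjusted p = 4.24e-09) and 3.66-fold higher with Cdx2 and FGF than in motor neuron cultures (1.87, SE 0.12, adjusted p = 4.57e-06). It was the 1 gene of 10 in the list of REST and its partners called between the day 5 groups. Its part in the synaptic gene differences was not tested.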

How the data were processed

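Per the labels' protocols, a NuGEN Ovation kit served to amplify and label the RNA. The submitters' processing notes name GCRMA and limma and give no version. The deposited table holds log2 signals per probe set that the authors had background-corrected and normalized; that the scale is log2 was judged from the range, and no further scaling was done. For arrays, their number limits the precision. Genes were named from the platform annotation where a probe set had 1 symbol, and each was represented by its brightest probe set on average over all arrays.

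Group means of all 9 arrays were fitted with limma 3.58.1 in R 4.3.3 (lmFit and eBayes with a trend on intensity, 6 residual degrees of freedom). Benjamini-Hochberg adjustment of p-values ran over the 10911 genes, or over the 21523 probe sets, with a value over 4 on at least 3 arrays. SE is from this fit and SD from the 3 arrays of a group. The script was tested on simulated data.

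The genes and the lists were chosen with earlier results of these data known. Genes named in each role were the transmitter genes, up to 4 with the largest difference between the day 5 groups (called ones first, values under 4 raised to 4), up to 2 more for motor neuron cultures against ES cells, and those with opposite probe sets; from each list up to 3 were named by the same rank. Alternatives were other scaling, filters, probe set choice, array weights, a replicate block and each array left out. RefSeq promoters came from a GRCm38.p6 table; promoters, the genome and other annotation beyond it were not used here.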

Additional observations from a re-analysis of the deposited data

How the results depend on the processing

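The counts of synaptic genes called in each comparison stayed within 1.5 times their reported values under rescaling, filters, other probe set choices, array weights and each array left out, apart from the fit of single probe sets, where 30 were higher in motor neuron cultures than in ES cells, 24 lower in Cdx2 and FGF cultures than in motor neuron cultures and 20 higher in Cdx2 and FGF cultures than in ES cells. With each array left out in turn, motor neuron cultures had 14 to 16 higher and 3 lower genes than ES cells, Cdx2 and FGF cultures had 0 higher and 11 to 15 lower genes than motor neuron cultures, and 6 to 7 higher and 9 lower than ES cells. Stx1a in Cdx2 and FGF cultures against ES cells turned from -2.27 to 0.20 when x_at and s_at probe sets were left out, since its other probe set was then used. Same-numbered arrays deviated together by no more than 0.077 (correlation), and 1 of 9 arrays correlated best with its own number in both other groups. No pairing by number was seen, but with 3 arrays a group this cannot exclude one. A replicate block gave 15 higher and 3 lower, 0 higher and 14 lower, and 8 higher and 9 lower genes in the 3 comparisons. Values near the floor bound the folds, and 49 of the 77 genes could not be tested at this signal.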

Other observations

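Probe sets of a single gene could read unlike samples. Another Syt1 probe set, outside the test, read 4.65, 2.17 and 7.44 on the ES arrays and the floor on all 6 day 5 arrays, where the brightest one was at the floor on ES arrays and read up to 8.26 on motor neuron arrays.

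Among the synaptic genes that did not enter the test, signal over 4 on 1 or 2 ES arrays was seen for 7, among them Grik1 (6.77, 2.17 and 6.52), Gabra5 (6.65, 2.17 and 5.83), Syn2 (5.35 on ES replicate 2), Gabrb1 (4.75 on ES replicate 3) and Gabrb2 (4.61 on ES replicate 1). No such gene passed 4 on a Cdx2 and FGF array. The SD of the tested synaptic genes over 3 arrays had a median of 0.549 for ES cells, 0.247 for motor neuron cultures and 0.124 for Cdx2 and FGF cultures.

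The ventral interneuron list had 2 tested genes, which went opposite ways between the day 5 groups. Gata3 was at the floor on the motor neuron arrays and read 5.55, 6.04 and 6.17 with Cdx2 and FGF, and Lhx1 read 6.87, 5.74 and 5.62 on the motor neuron arrays and the floor with Cdx2 and FGF. Each was at the floor in the dimmer of these groups, so the filter fixed both directions and the contrast is no result.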
